A study of Rattus norvegicus with 6 samples.

Results

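The genes described here encode 5 growth factors and 5 receptors of the platelet-derived growth factor (PDGF) and fibroblast growth factor (FGF) families: Pdgfa, Pdgfb, Pdgfra, Pdgfrb, Fgf2, Fgf7, Fgf10, Fgfr1, Fgfr2 and Fgfr3. They were followed on every probe set whose only gene symbol in the array annotation was one of these names, with no filter on signal, which gave 17 of the 31099 probe sets on the array for 9 of the 10 genes. Pdgfb had no probe set under this rule and was not analysed here.

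RNA came from whole ovaries of 4-day-old female Sprague-Dawley rats kept for 48 h on floating filters in serum-free medium with albumin, ascorbic acid, transferrin and antibiotics. The 3 control samples received no factor and the 3 treated samples received recombinant human NT3, a neurotrophin, at 50 ng/ml. Each sample held RNA of 2 to 3 ovaries and was measured on 1 Affymetrix array. The titles call the replicates biological without saying whether animals or litters differed, so that p-values measure the spread between these samples only.

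PDGF ligands are dimers that join a pair of receptor kinases at the surface of the responding cell. In the ovary the PDGF receptors are known from stromal, theca precursor and perivascular cells, and the ligands act mostly as signals from another cell type. FGF ligands bind their receptor kinases together with heparan sulfate chains. Fgf7 and Fgf10 are signals of mesenchyme to epithelium that use a splice form of the Fgfr2 receptor, whereas Fgf2 binds several receptors. In cultured neonatal ovaries, Fgf2, Fgf7 and PDGF are known as factors that promote the start of follicle growth.

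The array signal is a MAS5 intensity, scaled by its authors so that the trimmed mean was 210.1 on every array. It gives no absolute transcript number, and levels of different probe sets are not compared. The oocyte genes Zp3 and Gdf9 had signals from 3544 to 4501 and from 926 to 1824, and the granulosa cell gene Foxl2 from 479 to 767. These markers of the labelled tissue thus gave signal on all arrays. Other listed markers were weaker: the granulosa gene Cyp19a1 had 13.8 to 26.0, and the oocyte gene Bmp15 53.4 to 241, lowest on control replicate 2. Of 12 listed oocyte genes, 6 had a probe set. Control replicate 2 stood apart: its ratio of 3′ to 5′ signal was 6.83 for beta-actin, against 2.42 to 2.91 on the other arrays, and 1.70 against 1.09 to 1.25 for Gapdh. Without it, the ratios of NT3, 2.78 to 2.91 and 1.21 to 1.25, still lay above those of control, 2.42 and 2.60 and 1.09 and 1.14. The part of these ratios in any difference below was not tested. The log2 differences of 8 of the 17 probe sets changed sign without it, and these are given with and without it.

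None of the 9 genes with a probe set showed a difference between NT3-treated and control ovaries that passed the adjusted test. By limma with Benjamini-Hochberg adjustment over 31042 probe sets, 0 of the 17 probe sets had an adjusted p under 0.05, as did 0 of all probe sets (0%), and all 17 had an adjusted p of 1.00. At an unadjusted p under 0.05 there were 0 of the 17, against 752 or 2.42% of all probe sets. In none of the 17 were the groups free of overlap, against 7.16% of all probe sets (2.88% with NT3 higher and 4.28% with NT3 lower). A fit with replicate numbers as a block again gave 0 of 17, against 2.94% of all at an unadjusted p under 0.05 and 0% at an adjusted one. The log2 difference (NT3 minus control) was above 0 in 9 and below 0 in 8, with a median of 0.012, while 47.6% of all probe sets lay above 0 with a median of -0.012. Of the 17 probe sets, 11 had a mean log2 signal at or above the 40th percentile of the array, a signal of 41.3. The probe sets of all 3 FGF ligands lay below it, so that little can be read from them.

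**Figure D1:**
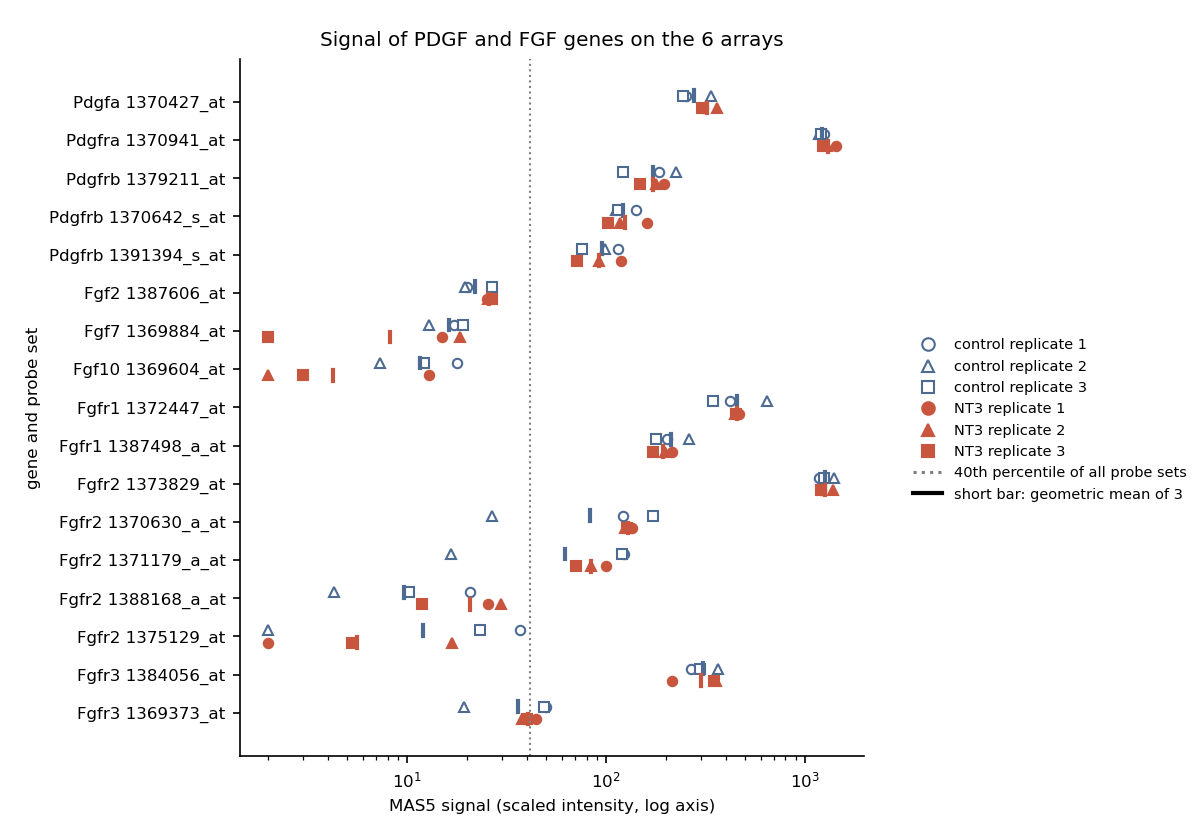
MAS5 signal (log axis) of the 17 probe sets on the 3 control arrays (open blue) and the 3 NT3 arrays (filled red), with shapes for the replicate number and a short bar at each group's geometric mean. The groups overlap in every row, the FGF ligands lie left of the dotted line at a signal of 41.3, and control replicate 2 (open triangle) lies far left of the other arrays in 3 of the 5 Fgfr2 rows and in Fgfr3 1369373_at.

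Among the ligands, Pdgfa, whose product homodimer acts on the alpha receptor, had signals of 253, 340 and 245 in control replicates 1 to 3 and of 308, 361 and 303 in NT3 replicates 1 to 3. Controls 1 and 3 were the lowest of the 6 arrays, while control 2 lay above NT3 replicates 1 and 3. The mean was 279 ± 52.4 in control and 324 ± 32.0 in NT3 (SD, n = 3). The log2 difference was 0.23 ± 0.15 (SE), a 1.17-fold higher signal with a 95% interval from 0.918 to 1.49, and an unadjusted limma p of 0.178. Within same-numbered arrays NT3 was higher in 3 of 3, by 0.28, 0.087 and 0.31 on the log2 scale, as it was for 9.53% of all probe sets. Without control replicate 2 the log2 difference was 0.37 with an unadjusted limma p of 0.0115, and the adjusted p was 0.996. In that fit 3 of the 17 probe sets had an unadjusted p under 0.05, the other two being of Fgfr2, against 3.92% of all probe sets.

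The FGF ligand genes gave weak signals. Fgf2, which encodes basic FGF, had 20.0, 19.6 and 26.7 in control and 25.3, 25.4 and 26.6 in NT3. The 3 NT3 arrays lay close together and within the range of the controls, at a log2 difference of 0.24 ± 0.36 (SE). Fgf7, the gene of keratinocyte growth factor, had 17.1, 12.9 and 19.1 in control and 14.9, 18.4 and 2.0 in NT3. NT3 replicate 3 alone was low, and the log2 difference of -0.98 ± 0.83 became 0.036 without it. Fgf10, the closest relative of Fgf7, had 17.8, 7.3 and 12.1 in control and 12.8, 2.0 and 3.0 in NT3. Its log2 difference was -1.45 ± 0.82, and NT3 was lower in 3 of 3 same-numbered arrays, as it was for 13% of all probe sets. The 95% interval ran from a fold of 0.102 to 1.31. Without NT3 replicate 1 the log2 difference was -2.25, with an unadjusted limma p of 0.0182 and an adjusted p of 1.00. It was -0.91 without NT3 replicate 2, at an unadjusted limma p of 0.303, and -1.20 without NT3 replicate 3. Leaving out control replicates 1, 2 or 3 gave -1.14, -1.79 and -1.42. The Fgf10 signals sit at the 12.5th percentile of the array's mean log2 signals, where a few units of signal make a large ratio.

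Pdgfra, which encodes the alpha receptor, had a strong signal of 1253, 1184 and 1213 in control and of 1432, 1288 and 1234 in NT3. The highest control lay between NT3 replicates 2 and 3, and NT3 replicate 1 was the highest array. The log2 difference was 0.11 ± 0.098 (SE), and the 95% interval of the fold, 0.928 to 1.26, was the narrowest of the 17. NT3 was higher in 3 of 3 same-numbered arrays, by 0.19, 0.12 and 0.025, and the difference was 0.052 without NT3 replicate 1. Mesenchyme markers had values in the same direction: all 10 listed genes had a probe set, all 10 were higher in NT3 with a median of 0.15, and their summed signal was 29499 to 30211 in control and 31247 to 33653 in NT3. Without control replicate 2, the lowest array on Lum, Dcn, Tcf21, Mfap4, Dpt and Thy1, 8 were higher and 2 lower, with a median of 0.097. That array was the highest control on Col1a1, Col1a2 and Col3a1. Their log2 differences rose from 0.14, 0.14 and 0.073 to 0.34, 0.29 and 0.12 without it, while those of the other mesenchyme markers fell. None of the 10 was at 0 and none passed the test. The granulosa list also had a higher summed signal in NT3 with no overlap (6037 to 6261 in control, 6322 to 6379 in NT3). The leukocyte list did as well (1432 to 1546 and 1554 to 1719), while sums of lists other than these and mesenchyme overlapped. Only 4 of 9 granulosa genes were higher, with a median log2 difference of -0.060, and -0.23 without control replicate 2. Of the leukocyte genes, 7 of 9 were higher with a median of 0.13. Such sums rest most on strong probe sets, as on Wt1 (2148 to 2633) in the granulosa list. How often other lists separate in this way was not tested. The surface and oviduct epithelium list had a median of 0.14 with 5 of 8 higher, and 0.26 with 7 of 8 higher without control replicate 2. All 9 endothelium genes were lower with a median of -0.096, and 8 of 9 with -0.11 without that array. The oocyte list had a median of -0.063 with 4 of 6 lower, and all 6 were lower without control replicate 2. In the adipocyte list 5 of 6 were lower with a median of -0.52, though only 2 of the 6 lay at or above the 40th percentile. None of these markers was at 0 on all arrays. The part of any of these lists in the Pdgfra value was not tested. In RNA from whole ovaries, fewer cells of a type and less RNA per cell cannot be told apart.

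Pdgfrb, the beta receptor gene of pericytes and stroma, was read by 3 probe sets, of which the names of 1370642_s_at and 1391394_s_at mark probes shared between transcripts. On 1379211_at the signal was 185, 225 and 122 in control and 196, 178 and 149 in NT3. On 1370642_s_at it was 142, 113 and 115 in control and 161, 118 and 103 in NT3. On 1391394_s_at it was 115, 98.6 and 75.7 in control and 119, 92.6 and 71.5 in NT3. On 1379211_at the NT3 arrays lay within the range of the controls, and on the other probe sets they reached both above and below it. The highest NT3 array was replicate 1 and the lowest replicate 3 on all 3 probe sets. The log2 differences were 0.012, 0.032 and -0.040 with standard errors from 0.21 to 0.25. Leaving out NT3 replicate 1 gave -0.078, -0.15 and -0.22, and leaving out NT3 replicate 3 gave 0.12, 0.17 and 0.15. Without control replicate 2 the differences were 0.21, -0.028 and -0.013. Of the 11 pericyte and smooth muscle markers, 7 were higher and 4 lower, with a summed signal of 1087 to 1331 in control and 1067 to 1512 in NT3. Their median log2 difference was 0.031, and 0.085 without control replicate 2.

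Fgfr1, a receptor gene widely used in mesenchyme, had 422, 646 and 347 in control and 467, 447 and 450 in NT3 on 1372447_at. The NT3 arrays lay within a narrow span in the middle of the control range, with a mean of 455 ± 10.9 against 472 ± 156 (SD, n = 3). On 1387498_a_at, whose name marks alternative transcripts of 1 gene, it had 204, 261 and 178 in control and 214, 198 and 172 in NT3. The log2 differences were -0.0035 ± 0.20 and -0.13 ± 0.17 (SE), and the first turned to 0.0058 with median centring. Control replicate 2 was the highest of the 6 arrays on both probe sets, and without it the differences were 0.25 and 0.024.

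Fgfr2, the receptor gene whose splice forms bind different FGF ligands, gave log2 differences from -1.10 to 1.10 over its 5 probe sets, the widest span of the 4 genes that had several. On 1373829_at it had a strong and even signal of 1184, 1399 and 1246 in control and of 1209, 1381 and 1213 in NT3. The means were 1276 ± 111 and 1268 ± 98.1 (SD, n = 3), the log2 difference was -0.0089 ± 0.11 (SE), turning to 0.00037 with median centring, and the 95% interval of the fold was 0.84 to 1.18. Without control replicate 2 the log2 difference was 0.059. In both groups the array numbered 2 was the highest.

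The other two Fgfr2 probe sets above the 40th percentile carry the mark of alternative transcripts. On 1370630_a_at the signal was 122, 26.8 and 174 in control and 135, 124 and 127 in NT3. On 1371179_a_at it was 123, 16.6 and 120 in control and 100, 84.1 and 70.4 in NT3. Control replicate 2 was the lowest array on both, at 0.198 and 0.171 times the geometric mean of the other 5 arrays, while on 1373829_at it stood at 1.12 times. With all arrays the log2 differences were 0.64 ± 0.57 and 0.42 ± 0.67. Without control replicate 2 they turned to -0.18 and -0.53, the second with an unadjusted limma p of 0.0259 and an adjusted p of 0.996. On 1371179_a_at both remaining controls were then above all 3 NT3 arrays, and on 1370630_a_at 1 lay above and 1 below all 3.

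The 2 weak probe sets of Fgfr2 were low on the same control array. On 1388168_a_at the signal was 20.7, 4.3 and 10.2 in control and 25.4, 29.6 and 11.9 in NT3, with a log2 difference of 1.10 ± 0.67 (SE) that was 0.51 without control replicate 2. On 1375129_at it was 37.1, 2.0 and 23.3 in control and 2.0, 16.7 and 5.3 in NT3, with -1.10 ± 1.17 and, without control replicate 2, -2.39 at an unadjusted limma p of 0.0246 (adjusted p 0.996). On the second of these, NT3 replicate 1 was as low as control replicate 2, and the log2 differences of these weak signals had opposite signs for 1 gene.

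Fgfr3, whose product restrains growth in cartilage, repeated the split. On 1384056_at it had 269, 368 and 298 in control and 215, 358 and 350 in NT3, with control replicate 2 the highest array and NT3 replicate 1 the lowest. On 1369373_at it had 49.7, 19.3 and 48.8 in control and 44.3, 37.9 and 40 in NT3, with control replicate 2 the lowest at 0.44 times the geometric mean of the others. The log2 differences were -0.044 ± 0.21 and 0.17 ± 0.40 (SE). Without control replicate 2 they were 0.082 and -0.28, and without NT3 replicate 1 the first was 0.20.

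Over the 17 probe sets, control replicate 2 was the lowest array on 6 and the highest on 5, where over all probe sets it was the lowest on 22.4% and the highest on 30.4%. Among those at or above the 40th percentile, it lay more than 2-fold below the other arrays on 2 of 11 here, both of Fgfr2, and on 3.96% of 18625 in all. The other 5 arrays did so on 0 of 11, and on 0.15% to 0.596% in all. This is the array whose beta-actin 5′ signal of 720, against 1397 to 1914 on the others, set its high 3′ to 5′ ratio. The part of RNA quality in the Fgfr2 and Fgfr3 values was not tested.

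**Figure D2:**
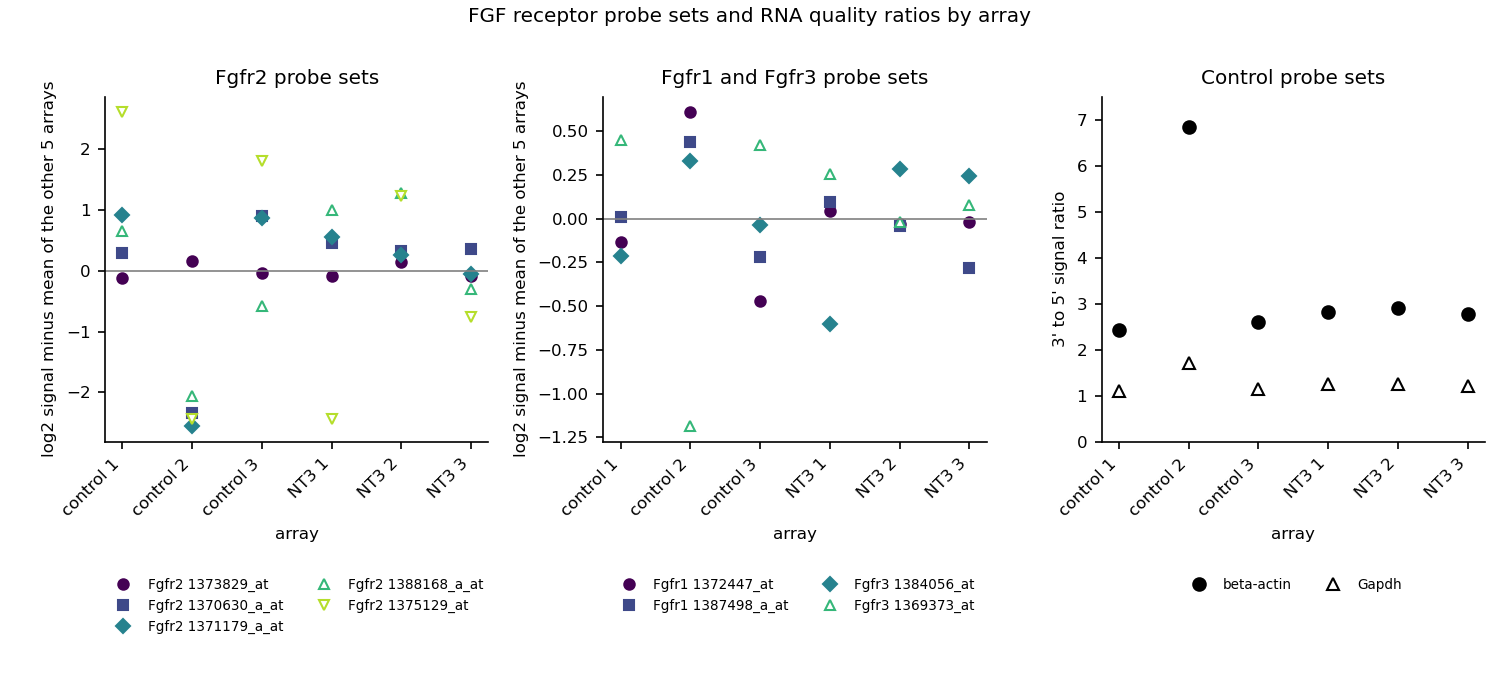
Left and middle, log2 signal of each Fgfr2, Fgfr1 and Fgfr3 probe set on an array minus the mean log2 signal of the other 5 arrays (open symbols, mean signal below the 40th percentile). Right, 3′ to 5′ signal ratio of the beta-actin and Gapdh control probe sets. On control replicate 2, 4 Fgfr2 probe sets lie below -2 and Fgfr3 1369373_at at -1.19, while Fgfr2 1373829_at lies at 0.17 and the beta-actin ratio is 6.83.

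**Figure D3:**
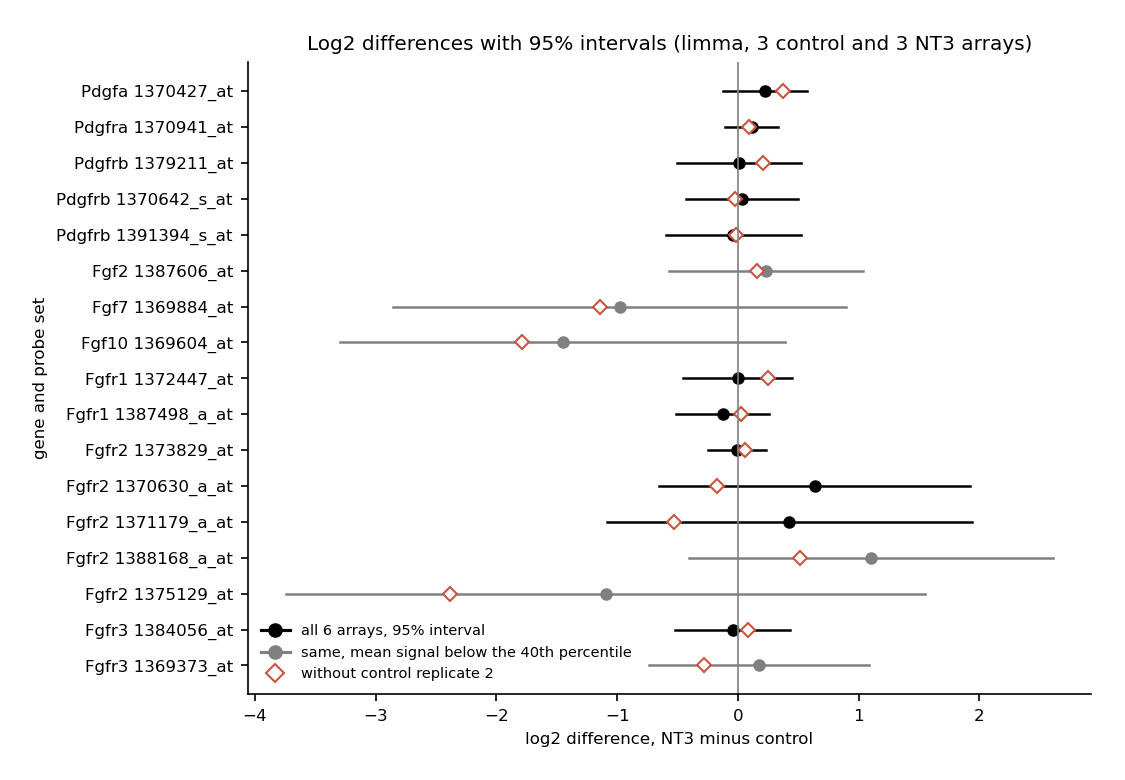
Log2 difference (NT3 minus control) of the 17 probe sets with all 6 arrays (circles with 95% intervals from limma, grey where the mean signal was below the 40th percentile) and without control replicate 2 (diamonds). Every interval includes 0, and the diamonds lie on the other side of 0 from the circles for 8 probe sets: both of Fgfr1, both of Fgfr3, Fgfr2 1373829_at, 1370630_a_at and 1371179_a_at, and Pdgfrb 1370642_s_at.

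Other genes of these pathways were taken as lists, with 1 probe set per gene. Of 28 other ligands, receptors and binding proteins of the families, 27 had a probe set and 10 lay at or above the 40th percentile. Of the 27, 9 were higher and 18 lower in NT3 with a median log2 difference of -0.064, and 0 passed limma's adjusted test. Leaving out control replicate 2 gave a median of -0.18, and leaving out control replicates 1 or 3 gave -0.12 and -0.11. Fgf6, a ligand gene known from muscle, had the lowest p, with signals of 2.0, 2.5 and 4.6 in control and 12.2, 9.5 and 22.3 in NT3. All 6 values were far below the 40th percentile, and its log2 difference was 2.27 ± 0.68 (SE) with an unadjusted limma p of 0.00831. The Fgf6 groups did not overlap, as with higher signal in NT3 for 2.88% of all probe sets. Fgf19, a hormone-like ligand, had -1.98 ± 0.82 from signals of 24.4 or less. Fgfrl1, which encodes an FGF receptor without a kinase, had 89.3, 89.2 and 119 in control and 111, 118 and 193 in NT3, at 0.47 ± 0.24.

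Of 27 genes of receptor adaptors and signalling proteins, 24 had a probe set, 13 were higher and 11 lower, the median was 0.022 and 0 passed. The median turned to -0.043 when control replicate 2 was left out, to -0.048 when NT3 replicate 1 was, and to -0.0052 and -0.022 when control replicates 1 or 3 were. Grb2, the adaptor that leads from receptor kinases to Ras, had 662, 774 and 630 in control and 569, 627 and 558 in NT3, with no overlap between the groups. Its log2 difference was -0.23 ± 0.11 (SE) with an unadjusted limma p of 0.0723, and -0.14 without control replicate 2, its highest array. In this list the groups did not overlap for 2 genes with lower signal in NT3, Grb2 and Gab1, and 2 with higher, Gab2 and Nck2. Over all probe sets this held for 4.28% with lower and 2.88% with higher signal. Gab2, a docking protein gene, had 1.76 ± 0.87 at signals of 38.3 or less, and Stat5a, a transcription factor gene, had -0.35 ± 0.18.

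Genes that FGF signalling is known to induce, among them feedback inhibitors and Ets factors, gave 15 with a probe set of 18 listed. Of these, 10 were higher and 5 lower with a median of 0.097, and 0 passed. Leaving out control replicate 2 gave a median of 0.054, and leaving out control replicate 3 gave -0.0015. The lowest p-values belonged to the transcription factor genes Fos, Etv4 and Etv1, at 0.25 ± 0.19, -0.17 ± 0.18 and 0.14 ± 0.16 (SE). Without control replicate 2 the first was 0.053, the second -0.0013 and the third 0.25. Of 23 genes of heparan sulfate chains and their core proteins, all had a probe set, 6 were higher and 17 lower, the median was -0.043 and 0 passed, with a median of -0.017 when control replicate 2 was left out. The sulfotransferase genes Ndst2 and Ndst1 had -0.21 ± 0.13 and 0.42 ± 0.36, and the core protein gene Gpc1 had -0.17 ± 0.16. Without control replicate 2 they had -0.17, 0.23 and -0.025.

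**Figure D4:**
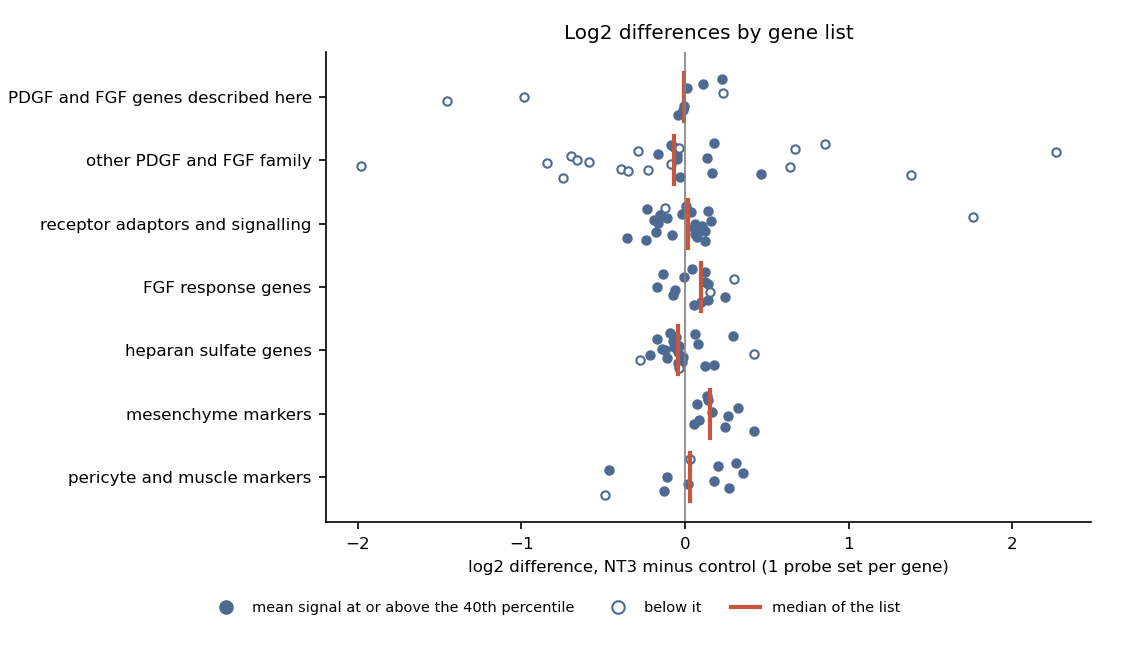
Log2 difference (NT3 minus control) of each gene by list, 1 probe set per gene, filled where the mean signal was at or above the 40th percentile, with the list's median as a red bar. The medians of the PDGF and FGF genes described here (-0.0035) and of the pathway lists lie between -0.064 and 0.097, the open points spread most widely, and all 10 mesenchyme markers lie above 0, as 8 did without control replicate 2.

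Likeness of signal across the 6 arrays was described for the PDGF and the FGF receptor gene of highest signal, over 10594 other genes at or above the 40th percentile. Dnajc18, Cep57 and Creb3l1 followed Pdgfra most closely, with Pearson r of 0.988, 0.974 and 0.973. Psme4, Phyhd1 and Ppp1cc followed Fgfr2 on 1373829_at, with 0.992, 0.99 and 0.987. The 6 points share the scaling and the split into groups and replicate numbers, and with 6 arrays and so many genes high values are found for any profile.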

How the data were processed

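The values are linear intensities that the authors deposited for each probe set, made with MAS5 per the submitters' processing notes (version and scaling target not given in the sources used here). Sample titles gave the groups and the replicate numbers. Of 31099 probe sets, 57 controls were left out of the tests. Signals were taken to log2, with any 0 (in 5 probe sets) raised to 0.1, and were not rescaled. All 31042 probe sets entered 1 fit with limma 3.58.1 in R 4.3.3 (lmFit, eBayes with intensity trend, 2-sided, Benjamini-Hochberg adjustment, threshold 0.05). Detection calls were not used here, so the 40th percentile of mean log2 signal, 5.37, marks weak probe sets. The number of arrays limits the precision. The fit was tested on simulated data.

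Names came from the array annotation, in which 20832 probe sets had 1 gene symbol, 436 several and 9831 none. Gene identifiers of 20764 were found in the RefSeq table of GRCr8 and 0 symbols changed. A gene in a list is its probe set of highest mean log2 signal. From each pathway list the 3 genes of lowest p were named. The members, lists and tests were chosen with earlier results of these data known.

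Replicate numbers are shared between the groups. Deviations from the group means correlated at 0.230, 0.247 and 0.222 for arrays numbered 1, 2 and 3 over the 18625 probe sets at or above the 40th percentile, and at 0.026, 0.053 and 0.037 over all. On the first set the numbers were taken to pair the samples, from the data and not the labels. The SEs, intervals and p-values given for single genes came from fits without this pairing. With the block the SE was 0.11 for Pdgfa and 0.70 for Fgf10, with unadjusted limma p of 0.082 and 0.073. Among the 17 probe sets the block raised the SE for Fgf2, to 0.39, and Fgfr2 1375129_at, to 1.26, and lowered it for the others. Alternatives were the replicate block, quantile normalization, median centring, the 40th percentile filter, an offset of 16, no trend, array weights, and arrays left out.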

Additional observations from a re-analysis of the deposited data

How the results depend on the processing

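The count of PDGF and FGF probe sets with an adjusted limma p under 0.05 was 0 of 17 in 14 other settings and 0 of 11 with the 40th percentile filter, which left out the other members. Over all probe sets it was 0 in the same 15. At an unadjusted p under 0.05 the members' count was 0 with the replicate block, against 912 of all 31042 probe sets. It was 1 with array weights, against 1082 of all, and 3 with both arrays numbered 2 left out, against 1080 of all. With single arrays left out the members' count was 0 to 3. A fit with the replicate block and both arrays numbered 2 left out, added after seeing the data, gave 4 members and 1473 of all probe sets. Over all probe sets the count of 752 became 240 with the 40th percentile filter, which tests fewer probe sets, and 706 to 1217 with single arrays left out, the highest without control replicate 2. The block changed no call.

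Signs turned for log2 differences near 0 or resting on 1 array. Median centring gave 0.0058 for Fgfr1 1372447_at and 0.00037 for Fgfr2 1373829_at. Array weights gave -0.10 for Fgfr3 1369373_at, -0.16 for Fgfr2 1371179_a_at, 0.16 for Fgfr1 1372447_at, 0.031 for Fgfr2 1373829_at and 0.027 for Pdgfrb 1391394_s_at. Without both arrays numbered 2, with or without the block, Fgfr3 1369373_at had -0.23, Fgfr2 1370630_a_at -0.15, Fgfr2 1371179_a_at -0.53, Fgfr1 1372447_at 0.26 and Fgfr1 1387498_a_at 0.0090. With single arrays left out the ranges were -1.56 to 0.036 for Fgf7, -0.20 to 0.25 and -0.25 to 0.024 for Fgfr1 1372447_at and 1387498_a_at, -0.18 to 1.17, -0.53 to 0.91 and -0.072 to 0.059 for Fgfr2 1370630_a_at, 1371179_a_at and 1373829_at, and -0.28 to 0.41 and -0.17 to 0.20 for Fgfr3 1369373_at and 1384056_at. For Pdgfrb 1370642_s_at, 1379211_at and 1391394_s_at they were -0.15 to 0.17, -0.24 to 0.21 and -0.22 to 0.15. The cause was not tested. Pdgfa (0.14 to 0.37), Pdgfra (0.052 to 0.16), Fgf2 and Fgf10 kept their sign in every setting that tested them. So did the weak Fgfr2 probe sets 1388168_a_at (0.26 to 1.65) and 1375129_at (-3.17 to -0.28), with opposite signs for 1 gene. Both 0.26 and -3.17 came from leaving out both arrays numbered 2. There 1375129_at had an unadjusted limma p of 0.00363 and did not pass the adjusted test.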

Other observations

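Some neighbours of these genes on the RefSeq GRCr8 assembly belong to related biology, and their values are given here, chosen after the data were seen. Nudt6, the gene next to Fgf2 and known as its antisense partner, had signals of 64.9, 85.4 and 55.4 in control and 86.3, 102 and 94.0 in NT3, so that the groups did not overlap, as with higher signal in NT3 for 2.88% of all probe sets. Its log2 difference was 0.48 ± 0.22 (SE) with an unadjusted limma p of 0.0610 and an adjusted p of 1.00, while Fgf2 itself had 0.24 ± 0.36 at signals below 27. Kit and Kdr, the receptor kinase genes that follow each other beside Pdgfra, had 0.24 ± 0.50 and -0.11 ± 0.19. Kit had a signal of 23.2 on control replicate 2 against 66.7 to 103 on the other arrays. Csf1r, beside Pdgfrb, had -0.026 ± 0.17.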
